A study of Mus musculus with 72 samples.

Results

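Gene expression in the dorsal hippocampus (DH) was compared with that in the ventral hippocampus (VH) of male mice under the strain label C57BL_6J (6J) that had stayed in the home cage. The comparison used 6 DH and 6 VH libraries, 12 of the 72 in the series, chosen by the region, strain label and condition in their labels. The series also held the label C57BL_6NJ (6NJ) and mice that received a cue, or a shock with the cue, in both regions, again with 6 libraries a group. The 12 libraries described here share the label 6J, male sex and the home cage, and no treatment, allele or transgene is named for them. The age of the mice is not given in the labels. Each library was made from total RNA of a dissected region, with poly(A) selection. It therefore draws on every cell type of that region and whatever neighbouring tissue was cut with it. No label states that each library is a separate mouse. Each library has a code (35A, 35B, 35C, 36A, 36B or 36C), and the same 6 codes occur in DH and in VH.

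The hippocampus runs along a curved long axis. Its dorsal end in rodents is best known for spatial learning and exchanges signals mainly with retrosplenial and other cortical areas, and its ventral end is connected with amygdala, hypothalamus and prefrontal cortex and is known for roles in anxiety and emotional memory. Both ends contain the same fields: the dentate gyrus with its granule cells, CA3, CA2, CA1 and the subiculum. Within a field, neurons at the dorsal and the ventral end express partly different genes, which include transcription factors, adhesion and guidance molecules, receptors and neuropeptides. A difference between dissected ends can therefore hold differences within 1 cell type, differences in the share of each field, and differences in glia or fibre tracts.

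The libraries were similar in depth, with 32012867 to 37272920 gene counts in DH and 34479251 to 39707582 in VH, and mitochondrial genes took 6.12 to 8.76% of the counts in DH and 7.33 to 9.34% in VH. The strain label itself goes against a known marker of the substrains. C57BL/6J mice carry a deletion in Nnt, a mitochondrial transhydrogenase gene, and express less Gabra2 than C57BL/6NJ mice, but the labels show the reverse. Over the whole series libraries labelled 6J had 68.4 to 87.7 CPM of Nnt (counts scaled by TMM to a common library size, CPM) and 220 to 330 CPM of Gabra2. Those labelled 6NJ had 36.3 to 45.4 CPM of Nnt and 91.1 to 159 CPM of Gabra2. All 12 libraries carry the label 6J, and it is used here only as a label. On the first principal component of the 12 libraries, with 39.3% of the variance, DH libraries lay between -39.1 and -17.2 and VH libraries between 7.72 and 39.4, where 7.72 was the VH library 35B. That library also had the highest summed level of dentate granule cell markers in VH (662 CPM, against 374 to 485 CPM in the other 5 VH libraries), and in many genes below it is the VH library nearest to DH. The DH library 36B had a summed level of choroid plexus markers of 3610 CPM, against 59.5 to 1300 CPM in the other 5 DH libraries. It also had 4.76 CPM of Chrnb4 and 10.8 CPM of Gpr151, a pair of genes known from the medial habenula, where no other DH library was above 0.372 CPM and 0.872 CPM. Without code 36B the differences of Chrnb4 and Gpr151 were -0.09 and -0.26 on the log2 scale, against 2.15 and 1.6 with it. In codes 35A and 35B the acute phase gene Lcn2 was above 2 CPM in both regions. Where a named gene lost or gained its call without code 35B, without code 36B or without codes 35A and 35B together, or a count of list members moved by 1.5 times or more, this is given beside it.

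Many genes differed between DH and VH in the home cage, most of them by little. Of 20255 genes tested with edgeR's quasi-likelihood test and Benjamini-Hochberg adjustment, 6842 had an adjusted p under 0.05, which is 33.8% of those tested. In DH 3502 were higher (17.3%) and 3340 lower (16.5%) than in VH. At least 1.2-fold differences were found for 2156 of the higher and 1919 of the lower genes, 1.5-fold for 935 and 860, 2-fold for 382 and 371, and 4-fold for 67 and 72. The 753 genes past 2-fold made up 3.72% of those tested. In 2491 genes (12.3%) the 6 DH and the 6 VH values did not overlap, with DH above VH in 1261 and below it in 1230. The median log2 fold change of all genes tested was 0.001 after TMM scaling, which itself places most genes near 0. Counts of list members below are to be read against these shares, 33.8% of genes called, 17.3% higher and 16.5% lower in DH. Counts of members without overlap between the groups are to be read against 12.3%. Fold changes are DH over VH, with a positive log2 value where DH was higher, and errors of fold changes are standard errors. Values of a gene are given as the lowest, the median and the highest of the 6 libraries of a region, in CPM. CPM is not divided by gene length, so levels are compared between regions and not between genes.

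**Figure D1:**
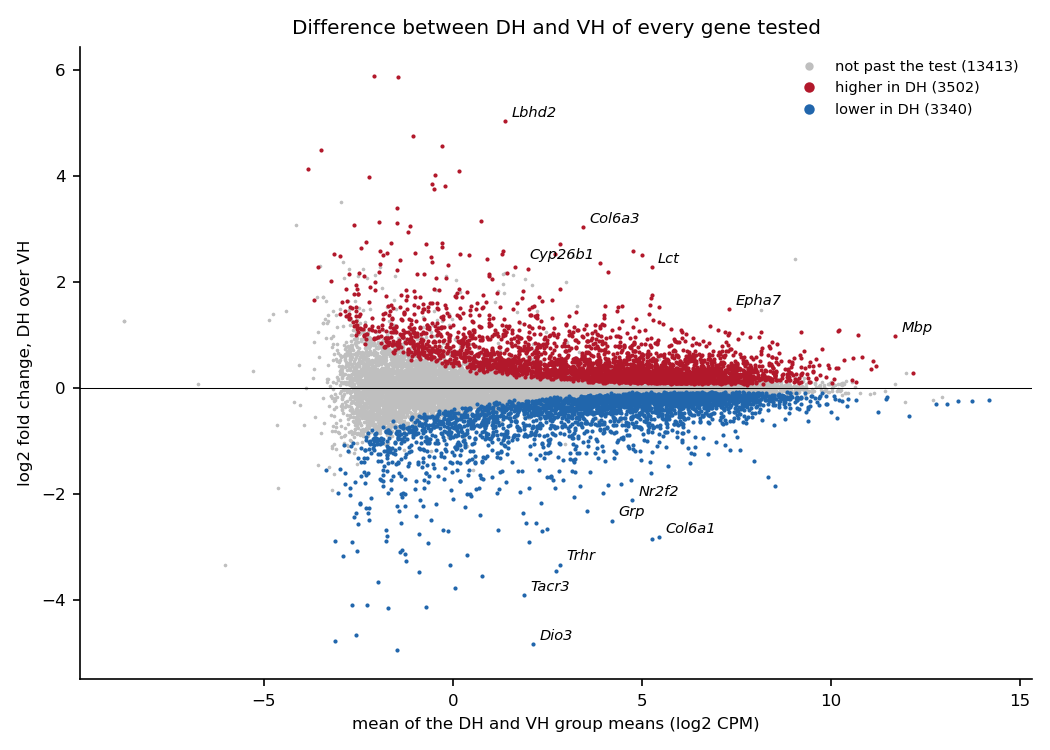
Each point is 1 of the 20255 genes tested, with the mean of the DH and VH group means (log2 CPM) on the horizontal axis and the log2 fold change of DH over VH on the vertical axis; red points were higher and blue points lower in DH at an adjusted p under 0.05, grey points did not pass. The largest fold changes lie among genes of low level, such as Dio3 at -4.83 and Lbhd2 at 5.04, while Mbp, at the high end, is at 0.99.

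Among genes at least 2-fold different, those higher in DH with the smallest p included a receptor of axon guidance, a matrix proteoglycan, and a Wnt ligand. Epha7, a receptor tyrosine kinase for ephrin-A ligands (ENSMUSG00000028289, chromosome 4, 28813131 to 28967499, plus strand), was at 179, 240 and 278 CPM in DH and 65.4, 78.6 and 118 CPM in VH. Every DH library was above every VH library, and the highest VH value was that of library 35B (log2 fold change 1.5 ± 0.127, adjusted p = 7.43e-14). Acan, which encodes aggrecan, the proteoglycan of perineuronal nets (ENSMUSG00000030607, chromosome 7, 79053483 to 79115099, plus strand), was at 6.68, 7.67 and 9.78 CPM in DH and 1.97, 2.53 and 3.01 CPM in VH (log2 fold change 1.65 ± 0.141, adjusted p = 5.25e-14). Lct, the lactase gene, known as a marker of dorsal dentate granule cells (ENSMUSG00000026354, chromosome 1, 128284756 to 128328318, minus strand), had 42.9, 64.1 and 80.1 CPM in DH and 8.98, 9.95 and 27.8 CPM in VH (log2 fold change 2.29 ± 0.23, adjusted p = 8.29e-12). The 5 VH libraries other than 35B lay close together and far below DH, and 35B stood between the groups. Wnt2, a secreted Wnt ligand (ENSMUSG00000010797, chromosome 6, 17988940 to 18030585, minus strand), was at 8.15, 8.99 and 11 CPM in DH and 2.2, 2.71 and 3.88 CPM in VH (log2 fold change 1.66 ± 0.155, adjusted p = 3.83e-13). Cacng5, an auxiliary subunit of AMPA receptors that marks CA2 (ENSMUSG00000040373, chromosome 11, 107874605 to 107915055, minus strand), had 21.6, 27 and 41.1 CPM in DH and 5.08, 5.86 and 8.07 CPM in VH (log2 fold change 2.2 ± 0.226, adjusted p = 1.35e-11). For both, as for Epha7, Acan and Lct, the groups did not overlap.

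The 20 genes at least 2-fold higher in DH with the smallest p also held Lingo3, a leucine-rich repeat membrane protein of neurons (1.54 ± 0.133), Itga7, a laminin-binding integrin subunit (1.58 ± 0.142), Inf2, a formin that acts on actin filaments (1.09 ± 0.0996) and Zfhx4, a zinc finger homeobox factor (1.55 ± 0.149), followed by 11 more. Igfbpl1, a member of the insulin-like growth factor binding protein family, was at 2.25 ± 0.224 on the log2 scale. The others were Plekhg1 (1.16 ± 0.105), Sertad4 (1.09 ± 0.102), Depdc7 (1.39 ± 0.122), Hhatl (1.21 ± 0.111), Ccdc3 (1.19 ± 0.121), Plcl1 (1.09 ± 0.112), Smtnl2 (1.54 ± 0.161), Srl (1.02 ± 0.108), Slco5a1 (1.18 ± 0.127) and the long noncoding RNA 4921539H07Rik (2.73 ± 0.232). In all 20 the lowest DH library was above the highest VH library. Genes named for a small p or a large fold were chosen in these same libraries. That choice favours groups that do not overlap, so their separation is not a further result, here or below. Among genes with at least 5 CPM on average in DH, the largest fold was that of Lbhd2, with 2.83, 5.34 and 7.01 CPM in DH and 0, 0.108 and 0.422 CPM in VH (log2 fold change 5.04 ± 0.943, adjusted p = 1.87e-05). In 1 VH library no read of it was found. Next came Col6a3, a collagen VI chain (3.04 ± 0.497), 4921539H07Rik, the neighbouring zinc finger genes Zic1 (2.6 ± 0.429) and Zic4 (2.54 ± 0.421), and Prkcd, which encodes protein kinase C delta (2.52 ± 0.266). Zic1 and Zic4 overlap on opposite strands, and the strand setting of the counting is not given in the sources used here, so their values may share reads. Pla2g2f, a secreted phospholipase A2, was also in this set (2.28 ± 0.289), at 3.1 without codes 35A and 35B.

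Genes at least 2-fold lower in DH included those of a synaptotagmin, a peptide, 2 peptide receptors, a deiodinase and mu-crystallin. Syt17, a member of the synaptotagmin family (ENSMUSG00000058420, chromosome 7, 118380717 to 118448222, minus strand), was at 39.8, 46 and 53.3 CPM in DH and 96.8, 111 and 121 CPM in VH (log2 fold change -1.23 ± 0.0955, adjusted p = 2.75e-15). Grp, the gastrin-releasing peptide gene (ENSMUSG00000024517), had 2.66, 5.91 and 7.54 CPM in DH and 19.6, 32.3 and 39.5 CPM in VH (log2 fold change -2.5 ± 0.238, adjusted p = 1.5e-12). Library 35B was the lowest VH library for Grp and still above every DH library. Dio3, the deiodinase that inactivates thyroid hormone (ENSMUSG00000075707, chromosome 12, 110279068 to 110281097, plus strand), was at 0.114, 0.29 and 0.444 CPM in DH and 3.16, 9.06 and 12.9 CPM in VH (log2 fold change -4.83 ± 0.5, adjusted p = 1.74e-11). This was the largest fold among genes lower in DH with a mean of at least 5 CPM in VH. Crym, which encodes the thyroid hormone binding protein mu-crystallin (ENSMUSG00000030905, chromosome 7, 120186380 to 120202111, minus strand), was at 99.7, 115 and 158 CPM in DH and 228, 277 and 297 CPM in VH (log2 fold change -1.17 ± 0.117, adjusted p = 6.91e-12). Trhr, the receptor for thyrotropin-releasing hormone (ENSMUSG00000038760, chromosome 15, 44196135 to 44235912, plus strand), had 0.938, 1.33 and 1.63 CPM in DH and 6.35, 12.3 and 20.1 CPM in VH (log2 fold change -3.33 ± 0.391, adjusted p = 5.46e-10). Tacr3, the receptor for neurokinin B (ENSMUSG00000028172, chromosome 3, 134829007 to 134934579, plus strand), had 0.172, 0.326 and 1.08 CPM in DH and 3.3, 7.41 and 9.75 CPM in VH (log2 fold change -3.91 ± 0.48, adjusted p = 1.8e-09). The groups did not overlap in any of these 6 genes.

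**Figure D2:**
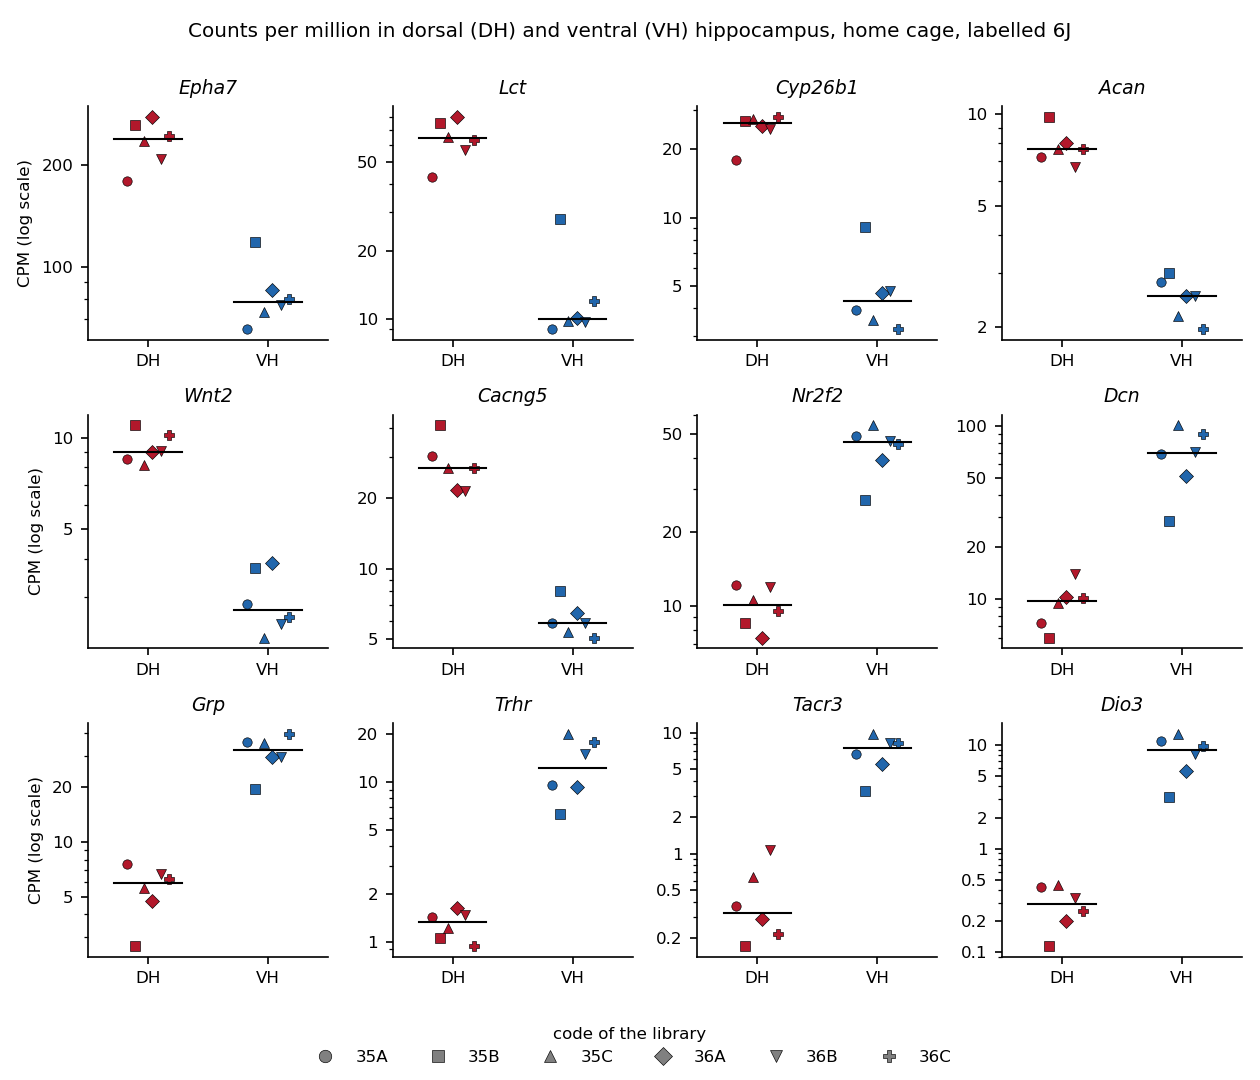
CPM of 12 genes (log axes) in the 6 DH (red, left) and 6 VH (blue, right) libraries of mice labelled 6J in the home cage; the shape gives the code of the library and the line the median. The groups do not overlap in any of the 12, and the VH library 35B (square) is the VH library nearest to DH in most, for example at 27.8 CPM of Lct and 28.3 CPM of Dcn.

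Syt17, Grp, Dio3 and Crym were among the 20 genes at least 2-fold lower in DH with the smallest p. The others included Crtac1 (-1.25 ± 0.111), Kcnj16, an inward rectifier potassium channel (-1.14 ± 0.103), Grin3a, a subunit of NMDA receptors (-1.1 ± 0.0999), Wnt4, a Wnt ligand (-1.38 ± 0.132) and Fxyd6, a regulator of the sodium pump (-1.41 ± 0.142). Further members were Slc7a3, a transporter of cationic amino acids (-1.66 ± 0.169), Lefty2, an inhibitor of Nodal signalling (-2.03 ± 0.21) and the retinoid receptor gene Rxrg (-2.54 ± 0.262). The set was completed by Megf11 (-1.32 ± 0.138), Tfr2, a transferrin receptor (-1.05 ± 0.104), Aloxe3 (-1.59 ± 0.158), the keratin genes Krt77 (-1.58 ± 0.146) and Krt2 (-1.68 ± 0.169), D630023F18Rik (-1.09 ± 0.108), the olfactory receptor gene Olfr316 (-2.7 ± 0.289) and the long noncoding RNA Gm28578 (-1.57 ± 0.163). Lefty1 lies beside Lefty2 and resembles it, and it was higher in DH (1.1 ± 0.162), with no overlap in either; the counting may split reads between these close relatives, which makes both values uncertain. The set with the largest folds added Vgll3, a transcription cofactor (-3.45 ± 0.519), Glp2r, the receptor for glucagon-like peptide 2 (-2.9 ± 0.309), and Dcn, which encodes the proteoglycan decorin (-2.84 ± 0.341). It also held Col6a1, a collagen VI chain (-2.81 ± 0.298), Ntn5, of the netrin family (-2.65 ± 0.298), and the long noncoding RNA 2600014E21Rik (-2.55 ± 0.305). The mitochondrial gene mt-Atp8 also met the rule (-2.7 ± 0.81), but its reading frame overlaps mt-Atp6 and its values overlapped, with DH lower in 4 of 6 codes, and it is uncertain as a level. Glp2r lies on the strand opposite to Gas7 and Rcvrn, and reads of overlapping genes may be shared.

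Collagen VI chains did not move together. Col6a1 was at 6.83, 11.3 and 13.4 CPM in DH and 34.4, 82.7 and 94.7 CPM in VH (ENSMUSG00000001119, chromosome 10, 76708792 to 76726168, minus strand). Col6a3 was at 8.71, 17.4 and 42.7 CPM in DH and 1.85, 2.39 and 2.92 CPM in VH (ENSMUSG00000048126, chromosome 1, 90765923 to 90843971, minus strand). The groups did not overlap in either gene, with Col6a1 below and Col6a3 above in DH. Col6a2, which was looked up after the values of these 2 chains were seen, was lower in DH (-2.32 ± 0.258). The usual collagen VI molecule is built from the chains of Col6a1, Col6a2 and Col6a3.

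Genes known as markers of the ventral end were lower in DH in 8 of 11 genes tested, and none was higher (median log2 fold change -1.21). Nr2f2, an orphan nuclear receptor of ventral hippocampus, was at 7.45, 10.1 and 12.2 CPM in DH and 27.1, 46.4 and 54.4 CPM in VH (log2 fold change -2.12 ± 0.228, adjusted p = 4.97e-11), with no overlap. Dcn had 6.01, 9.84 and 14 CPM in DH and 28.3, 69.9 and 101 CPM in VH. Plagl1, an imprinted zinc finger factor (-1.73 ± 0.225), Htr2c, the serotonin 2C receptor (-1.21 ± 0.34), Gpc3 (-0.69 ± 0.202) and Etv1 (-0.52 ± 0.0849), beside Grp and Trhr, completed the 8. Coch (-0.19 ± 0.319), Lypd1 (-0.18 ± 0.0867) and Col15a1 (0.35 ± 0.163) did not pass; Lypd1 passed without codes 35A and 35B (-0.28, adjusted p = 0.0409). Markers of the dorsal end were divided: of 9, 4 were higher and 4 lower in DH (median -0.09). Stra6 did not pass (-0.09 ± 0.153). The 4 higher ones were Lct, Lefty1, Wfs1, the wolframin gene of CA1 (0.7 ± 0.191), and Spink8 (0.39 ± 0.133). The 4 lower ones were Ccn3, at 51.3, 62.2 and 81 CPM in DH and 124, 150 and 174 CPM in VH (log2 fold change -1.24 ± 0.148, adjusted p = 8.33e-10), Mpped1 (-0.46 ± 0.0743), Gsg1l (-0.53 ± 0.191) and Fibcd1 (-0.25 ± 0.0998). Ccn3 and Mpped1 had no overlap between the groups and in this direction go against the list's name. Wfs1 and Spink8 did not pass without codes 35A and 35B (0.52, adjusted p = 0.08, and 0.34, adjusted p = 0.101), which leaves 2 of the 9 higher. Spink8 was also lost without 35B or 36B (adjusted p = 0.0502 and 0.0543). Fibcd1 was lost when code 35A, 35C, 36A or 36C was left out (log2 fold change -0.23 to -0.21) and Gsg1l when 35A, 35C or 36B was left out (-0.51 to -0.4).

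**Figure D3:**
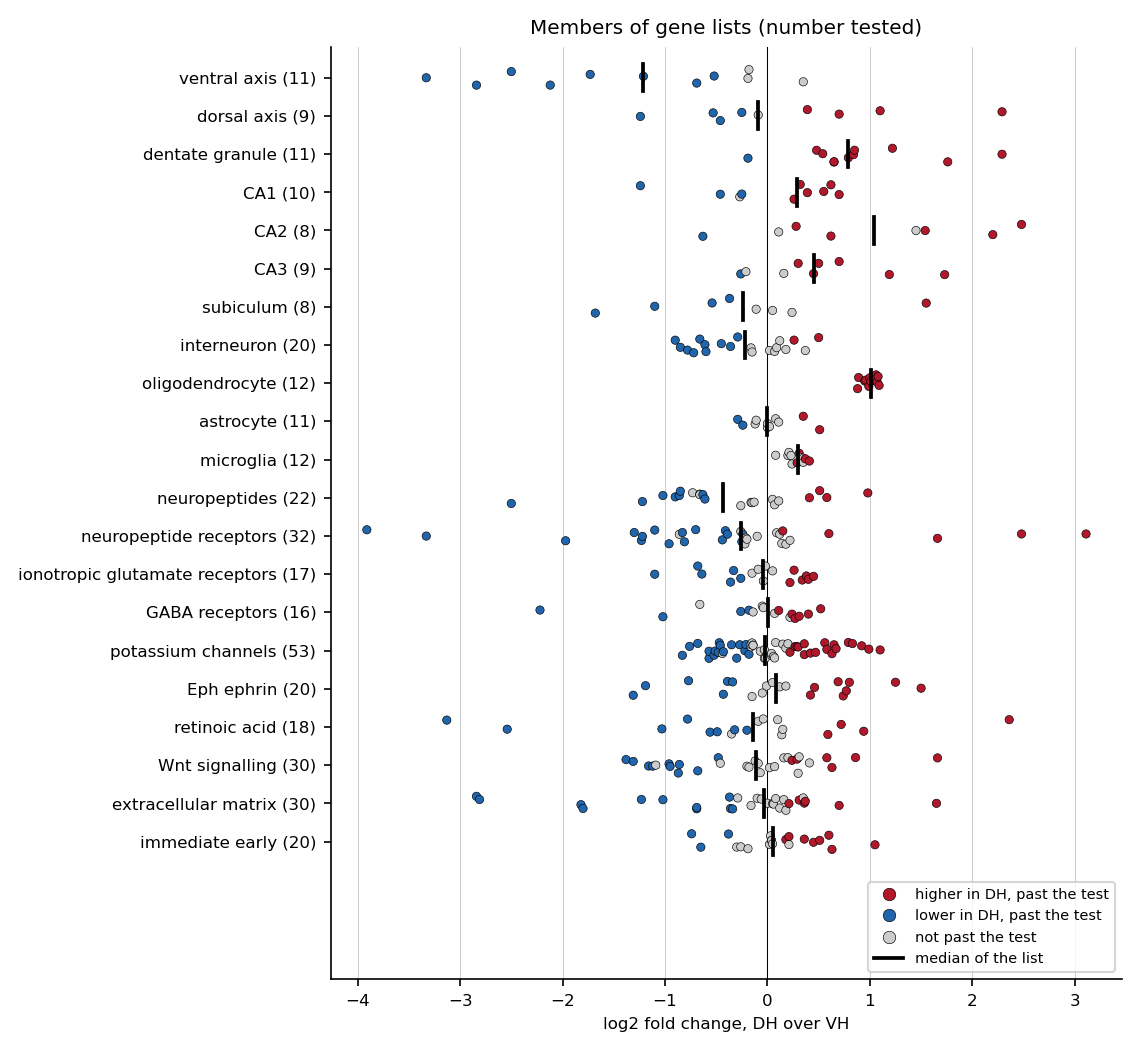
Log2 fold changes of DH over VH of the members of 21 gene lists; each point is 1 gene, red where higher and blue where lower in DH past the test, grey where not, the bar is the median, and the number tested is in brackets. All 12 oligodendrocyte markers lie near their median of 1.01, and the ventral markers have a median of -1.21.

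Retinoic acid, made from vitamin A, acts through nuclear receptors that pair as RAR and RXR on DNA, and enzymes of the Cyp26 family break it down. In this group 4 of 18 genes were higher in DH and 8 lower (median -0.14), and the 2 degrading enzymes went opposite ways. Cyp26b1 (ENSMUSG00000063415, chromosome 6, 84571414 to 84593908, minus strand) was at 18, 26.1 and 27.9 CPM in DH and 3.22, 4.27 and 9.09 CPM in VH (log2 fold change 2.36 ± 0.249, adjusted p = 2.92e-11). Cyp26a1 (ENSMUSG00000024987, chromosome 19, 37697798 to 37701536, plus strand) was at 0, 0.0983 and 0.114 CPM in DH and 0.448, 0.81 and 0.982 CPM in VH (log2 fold change -3.13 ± 0.416, adjusted p = 7.85e-09). Rxrg, the gamma form of RXR (ENSMUSG00000015843, chromosome 1, 167598384 to 167639623, plus strand), had 0.629, 1.3 and 2 CPM in DH and 4.22, 8.77 and 9.64 CPM in VH (log2 fold change -2.54 ± 0.262, adjusted p = 1.31e-11). The groups did not overlap in any of the 3, and 1 DH library had no read of Cyp26a1. Aldh1a1, an enzyme that makes retinoic acid (0.94 ± 0.117), and Rara, a RAR gene (0.59 ± 0.1), were higher in DH. Rxra (-0.56 ± 0.0732), Rbp4, which carries retinol (-1.03 ± 0.179), Dhrs3 (-0.49 ± 0.114), Aldh1a3 (-0.78 ± 0.227) and Rarb (-0.32 ± 0.0774) were lower. Crabp1 (0.72 ± 0.257) was higher and Rarg (-0.2 ± 0.0778) lower, but Crabp1 was lost without 35C, 36B or 36C (adjusted p 0.0557 to 0.0753) and Rarg without 35A, 35B, 36A or 36C (adjusted p 0.0528 to 0.154) and without codes 35A and 35B (adjusted p = 0.155). Aldh1a2, Rxrb, Crabp2, Stra6 and Rdh10 did not pass (log2 fold changes -0.35 to 0.14).

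The promoters of the 3 retinoid genes with the largest differences are printed to show where the letters AGNTCA, a half-site of nuclear receptors such as RAR and RXR, stand in them. The windows are the 250 bases before each start in RefSeq (GRCm38.p6), 5′ to 3′ on the strand of the gene, with matches on either strand in capitals.
Cyp26b1, chr6:84593811-84594060, minus strand: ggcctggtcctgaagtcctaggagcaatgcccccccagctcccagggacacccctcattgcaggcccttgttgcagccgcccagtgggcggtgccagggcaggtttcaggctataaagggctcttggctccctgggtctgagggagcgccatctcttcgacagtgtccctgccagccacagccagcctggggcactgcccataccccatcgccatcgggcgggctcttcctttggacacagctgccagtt
Cyp26a1, chr19:37697558-37697807, plus strand: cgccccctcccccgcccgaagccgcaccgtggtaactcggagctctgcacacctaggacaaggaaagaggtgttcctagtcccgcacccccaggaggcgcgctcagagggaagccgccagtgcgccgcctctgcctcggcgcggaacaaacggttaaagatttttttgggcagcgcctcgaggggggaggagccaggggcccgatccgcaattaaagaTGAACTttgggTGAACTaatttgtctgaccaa
Rxrg, upstream start, chr1:167598112-167598361, plus strand: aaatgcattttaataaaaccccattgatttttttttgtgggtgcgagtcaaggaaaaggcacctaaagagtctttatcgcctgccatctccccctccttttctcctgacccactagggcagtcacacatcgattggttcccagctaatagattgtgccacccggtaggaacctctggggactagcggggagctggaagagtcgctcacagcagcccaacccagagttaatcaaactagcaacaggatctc
Rxrg, downstream start, chr1:167618015-167618264, plus strand: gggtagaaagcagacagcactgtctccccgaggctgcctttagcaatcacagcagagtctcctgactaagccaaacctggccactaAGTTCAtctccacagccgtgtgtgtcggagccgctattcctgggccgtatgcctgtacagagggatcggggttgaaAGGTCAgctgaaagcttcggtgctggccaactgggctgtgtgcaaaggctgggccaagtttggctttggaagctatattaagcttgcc
The Cyp26b1 window and the window of the upstream Rxrg start held no match. The windows of Cyp26b1 and Cyp26a1 run in part into the gene extents given above, which come from GENCODE and not from RefSeq. The window of the downstream Rxrg start held 2 matches, both on the strand of the gene. The Cyp26a1 window held 2 matches on the opposite strand, which together form 1 direct repeat with 5 bases between them. A half-site was found in 41.3% of all 32851 windows of this length in the table, in 34.0% of the 16695 windows of genes tested, in 42.3% of the 298 windows of genes past 2-fold higher in DH and in 37.3% of the 295 windows of genes past 2-fold lower in DH. The direct repeat was found in 0.198% of all windows, in 0.0719% of those of genes tested, in 0 of the 298 and in 1 of the 295, that of Cyp26a1. A match describes the letters only, and binding was not measured.

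Most markers of dentate granule cells, CA2 and CA3 were higher in DH, while 4 of 8 markers of the subiculum and 4 of 7 markers of mossy cells were lower. In bulk samples, fewer cells of a type and less RNA of the gene in each cell cannot be told apart, and this applies to every marker below. Of 11 dentate granule cell markers 10 were higher and 1, Calb1, was lower (median 0.79). Prox1, the transcription factor of granule cells, was at 77, 118 and 154 CPM in DH and 45.6, 58.4 and 115 CPM in VH (log2 fold change 0.84 ± 0.148, adjusted p = 6.2e-06). The groups overlapped, with 115 CPM in library 35B as the highest VH value. Dsp, a desmosomal protein (1.76 ± 0.23), Plk5 (1.22 ± 0.187), Dock10 (0.85 ± 0.121), Tdo2 (0.79 ± 0.157), Stxbp6 (0.65 ± 0.116) and Pdzd2 (0.65 ± 0.146) moved the same way, and only Lct had no overlap between groups. C1ql2 (0.54 ± 0.149) and Glis3 (0.48 ± 0.154) were lost without code 36A (0.36, adjusted p = 0.0794, and 0.33, adjusted p = 0.124), and Calb1 (-0.19 ± 0.0677) without 35B, without 36C or without 35A and 35B (-0.15, -0.11 and -0.15). C1ql2, Glis3 and Calb1 were also lost in an edgeR fit to only the 12 libraries compared (adjusted p = 0.0569, 0.102 and 0.109). The summed level of the list was 516 to 940 CPM in DH and 374 to 662 CPM in VH.

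Of 8 CA2 markers 5 were higher in DH and 1 lower (median 1.04). Avpr1b, the vasopressin 1b receptor of CA2, was at 0.628, 1.17 and 1.57 CPM in DH and 0.1, 0.182 and 0.309 CPM in VH (log2 fold change 2.48 ± 0.325, adjusted p = 6.07e-09), with no overlap. Map3k15 (1.54 ± 0.172), Rgs14, a regulator of G protein signalling (0.62 ± 0.0903), and Cacng5 had no overlap either. Pcp4 (0.28 ± 0.11) was lost when any code except 36A was left out (adjusted p 0.0635 to 0.101) and without codes 35A and 35B (adjusted p = 0.164). Necab2, a calcium-binding protein, was lower (-0.63 ± 0.119), while Amigo2 (0.11 ± 0.123) and Sostdc1 did not pass. Sostdc1 is also on the list of choroid plexus markers, and the CA2 median of 1.04 includes it. It was at 15.1 CPM in DH library 36B and 10.1 CPM in 36C, against 2.55 to 6.05 CPM in the other DH libraries. Of 9 CA3 markers 6 were higher and 1 lower (0 lower without code 35B or without codes 35A and 35B; median 0.45), with Iyd (1.73 ± 0.196), Bok (0.7 ± 0.119), Cpne4 (0.5 ± 0.0775) and Chgb, a granin of secretory vesicles (0.45 ± 0.102), among the higher; their groups did not overlap. The summed CA3 level was 933 to 1210 CPM in DH and 686 to 916 CPM in VH. Of 10 CA1 markers 6 were higher and 3 lower (median 0.29), with 4 higher without code 36B or without codes 35A and 35B, and 2 lower without 35A, 35C, 36A or 36C. Pou3f1, a POU transcription factor (0.62 ± 0.106), Man1a (0.55 ± 0.107) and Lmo3 (0.32 ± 0.0568) were higher, while Ccn3 and Mpped1 were lower as above. The summed CA1 level was 1130 to 1310 CPM in DH and 1120 to 1300 CPM in VH. The CA1 sums overlapped almost entirely, while the members of the list went both ways.

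Of 8 subiculum markers 1 was higher and 4 lower (median -0.24). Tpbg, an oncofetal glycoprotein of the cell surface, was at 2.23, 2.89 and 3.41 CPM in DH and 5.3, 9.49 and 11.3 CPM in VH (log2 fold change -1.68 ± 0.197, adjusted p = 3.68e-10). Rxfp1, the relaxin receptor (-1.1 ± 0.358), was lower too, with no overlap in either. Without codes 35A and 35B Rxfp1 was at -1.07 (adjusted p = 0.0585). Scn4b, a sodium channel beta subunit, went the other way at 30.2, 32.3 and 39.6 CPM in DH and 6.9, 11.4 and 16.1 CPM in VH (log2 fold change 1.55 ± 0.191, adjusted p = 1.81e-09), again with no overlap. Of 7 mossy cell markers 4 were lower in DH, among them Necab1 (-1.12 ± 0.171) and Cda (-1.05 ± 0.176), and Drd2 alone was higher (0.71 ± 0.207; 0.39, adjusted p = 0.254 without codes 35A and 35B).

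Interneuron markers were lower in DH in 10 of 20 genes and higher in 2 (median -0.22). The genes that define GABA neurons, Gad1 (0.02 ± 0.0615), Gad2 (0.12 ± 0.0787) and Slc32a1 (0.09 ± 0.104), did not pass, nor did Pvalb (-0.16 ± 0.104), Npy (-0.15 ± 0.0944) or Cck (0.07 ± 0.0726). Vip, the peptide of a class of interneurons, was at 9.44, 11.5 and 12.9 CPM in DH and 16.7, 21.3 and 22.7 CPM in VH (log2 fold change -0.85 ± 0.134, adjusted p = 7e-07), with no overlap. Sst, the somatostatin gene, was at 94.2, 114 and 141 CPM in DH and 131, 195 and 209 CPM in VH (log2 fold change -0.66 ± 0.101, adjusted p = 2.86e-07). Nos1, a nitric oxide synthase (-0.61 ± 0.0944), and Lhx6, a transcription factor of interneurons of the medial ganglionic eminence (-0.6 ± 0.0912), were lower. The serotonin receptor gene Htr3a (-0.72 ± 0.111), the cannabinoid receptor gene Cnr1 (-0.45 ± 0.0812) and Cort (-0.9 ± 0.205) were lower as well. Without code 36B Gad2 passed (0.21, adjusted p = 0.0474). Ndnf, a marker of neurogliaform cells, was higher (0.5 ± 0.104), and Adarb2 was higher too (0.26 ± 0.0934) but was lost without 35C, 36A or 36C (adjusted p 0.0524 to 0.346). Summed interneuron markers were at 1380 to 1640 CPM in DH and 1570 to 1820 CPM in VH.

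All 12 oligodendrocyte markers were higher in DH, with fold changes close to 2 (median log2 fold change 1.01, range 0.88 to 1.09). The groups did not overlap in any of the 12, beside 12.3% of all genes tested. Mbp, the myelin basic protein gene, was at 4020, 4290 and 5410 CPM in DH and 1670, 1960 and 3330 CPM in VH (log2 fold change 0.99 ± 0.165, adjusted p = 2.21e-06). Mobp (1.09 ± 0.172), Mog (1.06 ± 0.165), Mag (1.01 ± 0.177), Cnp (0.88 ± 0.142) and Opalin (1.08 ± 0.197) were close to it in fold. The sum of the 12 was 9010 to 11100 CPM in DH and 3440 to 6950 CPM in VH, where libraries 35B and 36A were the highest. Markers of oligodendrocyte precursors were less clear: Pdgfra (-0.02 ± 0.0854), Cspg4 (-0.1 ± 0.0905) and 2 others of the 8 did not pass, and Olig1 (0.31 ± 0.0832), Olig2 (0.34 ± 0.109), Gpr17 (0.33 ± 0.0939) and Neu4 (0.26 ± 0.0804) were higher. Whether myelinated fibre tracts were cut with the regions in different amounts was not tested.

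Of 11 astrocyte markers 2 were higher, Gfap (0.51 ± 0.0954) and Aqp4 (0.35 ± 0.103), and 2 lower, Aldoc (-0.29 ± 0.0663) and Fgfr3 (-0.24 ± 0.0677), with a median of 0. Of 12 microglia markers 4 were higher and none lower (median 0.3), a share of 33.3% beside the 33.8% of all genes tested. Without code 35B, code 36A or codes 35A and 35B the count was 1, without 35A, 35C or 36C it was 2, and without 36B 4. With the code as a replicate block 10 of the 12 were higher, beside 7669 of 20255 genes called in that fit. The labels do not say that a code is 1 mouse. None of 11 endothelial markers passed (log2 fold changes -0.13 to 0.11), and 1 was higher without codes 35A and 35B, while 1 of 8 mural markers, Rgs5, was lower (-0.23 ± 0.044), and 2 were without code 35C. Of 8 meningeal fibroblast markers Dcn alone passed, and Col1a1 (0.08 ± 0.224), Col1a2 (0.25 ± 0.312) and Lum (-0.16 ± 0.249) did not. Of 8 markers of the ependyma, the ciliated lining of the ventricles, 5 were higher in DH, and 3 without code 36B. Foxj1, the transcription factor of ciliated cells, was at 9.25, 10.6 and 15.4 CPM in DH and 4.67, 5.57 and 6.72 CPM in VH (log2 fold change 1.01 ± 0.229, adjusted p = 0.000322).

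**Figure D4:**
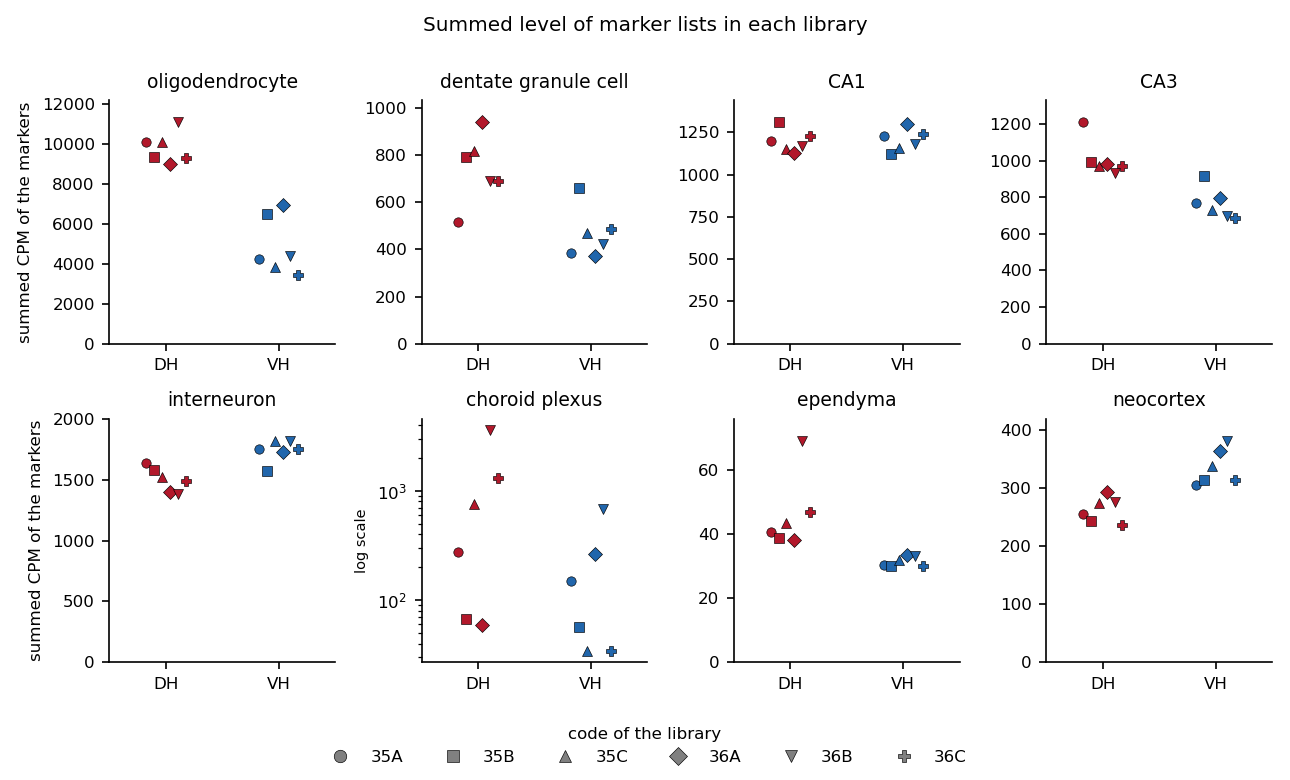
Summed CPM of 8 marker lists in each DH (red, left) and VH (blue, right) library, with the shape giving the code; the choroid plexus axis is logarithmic and the others start at 0. Oligodendrocyte sums of DH (9010 to 11100 CPM) lie above those of VH (3440 to 6950 CPM), CA1 sums lie at the same height, and choroid plexus sums spread from 59.5 to 3610 CPM in DH and from 34.2 to 677 CPM in VH.

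Choroid plexus markers varied widely between libraries of the same region. Ttr, the transthyretin gene of choroid plexus, was at 22.4, 444 and 3340 CPM in DH and 12.2, 72.7 and 606 CPM in VH, and did not pass (log2 fold change 2.44 ± 1.59, adjusted p = 0.247). Kl, the klotho gene, alone of the 12 passed (1.31 ± 0.526) and was lost when any code was left out (adjusted p 0.0564 to 0.135) and without codes 35A and 35B (adjusted p = 0.0711). The median of the list was 1.96 on the log2 scale, in groups that overlapped for all 12. Of 10 markers of neocortex none was higher and 5 were lower in DH (median -0.43). Fezf2, a transcription factor of deep layers, was at 23.8, 25.7 and 34 CPM in DH and 41, 45.4 and 53.1 CPM in VH (log2 fold change -0.74 ± 0.0986, adjusted p = 1.02e-08). Cux2, of upper layers, was lower too (-0.77 ± 0.167). Tshz2 (-0.84 ± 0.337) was lost when any code was left out (adjusted p 0.0615 to 0.112), Krt12 (-0.62 ± 0.235) without 36A, 36B or 36C (adjusted p 0.0693 to 0.0996) and Myl4 (-0.63 ± 0.218) without 35C or 36A (adjusted p 0.0834 to 0.118). Without codes 35A and 35B Tshz2 and Krt12 did not pass (adjusted p = 0.148 and 0.0615). In all, 2 of the 10 passed without 36A and 3 without 35C, 36B or 36C. Foxp2 (-0.24 ± 0.251) and Tbr1 (-0.09 ± 0.118) did not pass. Of 10 markers of thalamus and habenula 3 were higher, Prkcd, Plekhg1 and Gpr151, the last only with code 36B, and 2 lower. Calb2 (-0.78 ± 0.304) and Rora (-0.23 ± 0.0849) were the lower ones. Calb2 was lost without 35C, 36A or 36C (adjusted p 0.0938 to 0.146) and Rora without 35A, 35C, 36B or 36C (adjusted p 0.0503 to 0.112). Without codes 35A and 35B both were lost (adjusted p = 0.0513 and 0.0634), which leaves 0 lower. Prkcd was at 35.9, 53.7 and 78.6 CPM in DH and 6.51, 7.89 and 16.2 CPM in VH with no overlap. Tcf7l2 (0.2 ± 0.131), Lef1 (-0.12 ± 0.126) and Slc17a6 (0.24 ± 0.242), which thalamic neurons express at high level, did not pass. Of 9 striatal markers 2 were higher (1 without 35C, 36B or 36C) and 4 lower. Among the lower were Tac1, Rarb and Rgs9, the last at 8.88 to 11.4 CPM in DH and 12.2 to 13.7 CPM in VH with no overlap. Drd1 (-0.05 ± 0.196) and Adora2a (0.15 ± 0.151) did not pass, and Penk was higher (0.58 ± 0.178). Without codes 35A and 35B Penk was at 0.42 (adjusted p = 0.155). Of 8 markers of amygdala and entorhinal cortex 4 were higher and 3 lower. Cyp26b1 (2.36), described above as a retinoid gene, and Neurod6 were among the higher. Rspo2 (-1.31 ± 0.141), Etv1 and Meis2 were the lower ones. The part of neighbouring tissue in the differences above was not tested.

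Of 30 transcription factors known for regional identity in the forebrain 8 were higher and 11 lower (median -0.12). Zbtb20, a zinc finger factor required for hippocampal identity, was at 346, 441 and 477 CPM in DH and 198, 248 and 326 CPM in VH (log2 fold change 0.75 ± 0.111, adjusted p = 1.64e-07). Bcl11b, a zinc finger factor of projection neurons, was also higher (0.62 ± 0.0784), as were Neurod2 (0.49 ± 0.0865) and Neurod6 (0.47 ± 0.0886). Nr2f1, the close relative of Nr2f2, was lower (-0.64 ± 0.057), with Sox5 (-0.54 ± 0.0688), Satb1 (-0.38 ± 0.108) and Meis2 (-0.5 ± 0.119). Emx1, a factor of the dorsal telencephalon (0.15 ± 0.0978), Neurod1 (0.1 ± 0.0806) and Nfix (0.03 ± 0.0457) did not pass.

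Ionotropic glutamate receptor genes moved in both directions, 6 of 17 higher and 6 lower (median -0.04). Higher in DH was the AMPA receptor subunit Gria1, at 978, 1130 and 1240 CPM in DH and 789, 849 and 977 CPM in VH (log2 fold change 0.38 ± 0.0603, adjusted p = 7.43e-07). So were the NMDA receptor subunits Grin2a (0.45 ± 0.0632), Grin2b (0.4 ± 0.0783), Grin1 (0.26 ± 0.0519) and Grin2c (0.34 ± 0.0805). Gria2 was higher (0.22 ± 0.0773) and was lost without code 35B or 36A (0.2 and 0.17). Lower in DH was Grin3a, a subunit that lowers the calcium permeability of NMDA receptors, at 21.7, 26.9 and 30.3 CPM in DH and 42.9, 59.4 and 64.9 CPM in VH with no overlap. Gria4 (-0.68 ± 0.0823), Grik1 (-0.64 ± 0.0992) and Grin2d (-0.33 ± 0.0876) were lower as well, and 4 of the 17 were lower without codes 35A and 35B. Of 14 auxiliary subunits 7 were higher and 5 lower (median 0.12). Beside Cacng5, Cacng8 (0.58 ± 0.0758) and Shisa6 (0.43 ± 0.101) were higher, and Cnih3 (-0.55 ± 0.0599) and Neto1 (-0.5 ± 0.0702) lower. Of 10 metabotropic receptor and Homer genes 4 were higher, Homer2 among them (0.46 ± 0.0801), and 1 lower; without code 35A or 35C the higher ones were 2, and without 36A, 36B or 36C the lower ones were 0.

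GABA receptor genes showed 6 of 16 higher and 4 lower (median 0.01). Gabra3, an alpha subunit of GABA-A receptors, was at 40.1, 43.8 and 49.9 CPM in DH and 68.4, 91.8 and 102 CPM in VH (log2 fold change -1.02 ± 0.117, adjusted p = 2.81e-10), with no overlap. Gabrq, at 0.202 CPM on average in DH and 0.959 CPM in VH, was lower as well (-2.22 ± 0.486). Gabra4 (0.31 ± 0.0594) and Gabrd, the delta subunit of extrasynaptic receptors (0.4 ± 0.11), were higher. Of 12 serotonin receptor genes 2 were higher and 4 lower (median 0.01), and 1 was higher without codes 35A and 35B. Htr2c was at 12.3, 23.9 and 39.3 CPM in DH and 33.1, 58.8 and 63.5 CPM in VH (log2 fold change -1.21 ± 0.34, adjusted p = 0.00391), with overlapping groups, and Htr7 (-0.63 ± 0.121) and Htr5a (-0.37 ± 0.0718) were lower. The overlap of Htr2c came from DH library 36B alone, the DH library highest in choroid plexus markers. The next DH value was 26.1 CPM, below every VH library. Htr1f was higher (1 ± 0.18), and Htr1a (-0.01 ± 0.0882) and Htr2a (0.03 ± 0.105) did not pass. Of 11 dopamine and adrenergic receptor genes 3 were higher and 5 lower (median -0.05), 2 of them higher without codes 35A and 35B. Of these, Drd5 was higher (0.5 ± 0.114), and Adra1b (-0.81 ± 0.197), Adra2a (-0.65 ± 0.127) and Adrb1 (-0.35 ± 0.0859) were lower. Of 13 acetylcholine receptor genes 5 were higher and 3 lower, and 3 were higher without code 36B, since Chrna3 (1.74 ± 0.612; 0.2 without 36B) and Chrnb4 (2.15 ± 0.697; -0.09 without 36B) were lost, and 2 lower without 35A or without 35A and 35B. Chrm3, a muscarinic receptor, was at 63.5, 76.5 and 88.5 CPM in DH and 32.1, 40.5 and 46.3 CPM in VH (log2 fold change 0.93 ± 0.0842, adjusted p = 2.34e-13). Chrm4 (-0.71 ± 0.113) and Chrna4 (-0.57 ± 0.141) were lower; the groups did not overlap in any of these 3.

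Neuropeptide genes were lower in DH in 9 of 22 and higher in 4 (median -0.43), and their receptors lower in 16 of 32 and higher in 5 (median -0.26). Besides Grp, Sst and Vip, the peptide genes lower in DH included Adcyap1, which encodes PACAP, at 1.6, 2.77 and 5.93 CPM in DH and 4.09, 8.83 and 9.85 CPM in VH (log2 fold change -1.22 ± 0.302, adjusted p = 0.00102). Nxph3 (-1.02 ± 0.245), Tac1 (-0.86 ± 0.135), Cartpt (-0.61 ± 0.183) and Crh, the corticotropin-releasing hormone gene (-0.63 ± 0.191), were lower too. Bdnf, the neurotrophin gene, was at 35.7, 47.1 and 51.4 CPM in DH and 26.7, 32.8 and 34.1 CPM in VH (log2 fold change 0.51 ± 0.0857, adjusted p = 2.03e-06), with no overlap, and Pdyn, the prodynorphin gene, was higher (0.98 ± 0.144). Without codes 35A and 35B 2 of the 22 peptide genes were higher, and among genes with a mean of at least 1 CPM 2 of the receptors were. Among receptors, Oxtr, the oxytocin receptor gene, was at 5.11, 6.36 and 10.3 CPM in DH and 14.2, 15.7 and 18.8 CPM in VH (log2 fold change -1.22 ± 0.162, adjusted p = 1.19e-08). Oprk1, the kappa opioid receptor gene, was at 0.714, 0.88 and 1.09 CPM in DH and 2.24, 3.62 and 4.55 CPM in VH (log2 fold change -1.97 ± 0.231, adjusted p = 2.98e-10). Sstr1, a somatostatin receptor gene, was at 3.33, 3.8 and 4.8 CPM in DH and 7.47, 9.67 and 12.8 CPM in VH (log2 fold change -1.3 ± 0.177, adjusted p = 2.12e-08). In all 3 every DH library was below every VH library. Nmbr (-1.23 ± 0.203), Ntsr1 (-0.96 ± 0.243), Rxfp3 (-0.83 ± 0.154), Tacr1 (-0.81 ± 0.212) and Oprl1 (-0.44 ± 0.0646) were lower too. Avpr1b, Mc3r (3.11 ± 0.622) and Sstr4 (0.6 ± 0.16) were higher, while Npy1r (-0.1 ± 0.0969), Npy2r (0.14 ± 0.093) and Mc4r (0.09 ± 0.147) did not pass. Mc3r was at a very low level, 0.0857 to 0.985 CPM in DH and 0.0251 to 0.133 CPM in VH, and its groups overlapped.

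Of 14 genes of the stress and steroid axis 4 were higher and 5 lower (median -0.01). Nr3c2, the mineralocorticoid receptor gene, was at 192, 220 and 252 CPM in DH and 119, 135 and 151 CPM in VH (log2 fold change 0.69 ± 0.0875, adjusted p = 2.82e-09), with no overlap, and Nr3c1, the glucocorticoid receptor gene, differed less (0.27 ± 0.0621). Hsd11b1, which regenerates active glucocorticoid (0.57 ± 0.0943), and Sgk1, a kinase induced by corticosteroids (0.41 ± 0.0947), were higher. Esr1, the estrogen receptor alpha gene, was at 1.14, 1.41 and 1.94 CPM in DH and 2.19, 3.08 and 4.91 CPM in VH (log2 fold change -1.2 ± 0.149, adjusted p = 1.45e-09). Esr2 (-2.26 ± 0.492), Pgr (-0.34 ± 0.0812) and Crhbp (-0.39 ± 0.097) were lower. Fkbp5 (0.13 ± 0.0966) and Tsc22d3 (-0.12 ± 0.103) did not pass. Both passed in the fit with the code as a replicate block (adjusted p = 0.0147 and 0.0489).

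Potassium channel genes, 53 in all, split almost evenly, with 18 higher, 17 lower and 18 not passing (median -0.02). The groups did not overlap in 21 of the 53, beside 12.3% of all genes tested. Kcnd2, the A-type channel Kv4.2 of dendrites, was at 143, 153 and 175 CPM in DH and 93.3, 98.6 and 117 CPM in VH (log2 fold change 0.63 ± 0.0605, adjusted p = 8.77e-13), while its relative Kcnd3 was lower in DH (-0.46 ± 0.0654). Among the Kv7 channels Kcnq3 was higher (0.47 ± 0.0619) and Kcnq5 lower (-0.43 ± 0.091). Kcnj6, which encodes the G protein-gated channel GIRK2, was higher (0.83 ± 0.134) and its partner Kcnj9, GIRK3, lower (-0.57 ± 0.0991). Kcnh5 (0.99 ± 0.183), Kcnj2 (0.92 ± 0.176) and Kcns2 (0.65 ± 0.0818) were among those higher, and Kcnc4 (-0.83 ± 0.113), Kcng1 (-0.76 ± 0.136) and Kcnf1 (-0.68 ± 0.117) among those lower. Of 21 HCN, sodium and calcium channel genes 8 were higher and 6 lower (median 0.05); 4 were lower without code 35C. Scn3b (0.76 ± 0.0796) and Cacna1a (0.42 ± 0.0602) were higher. Cacna1g (-0.64 ± 0.0932) and Cacna1i (-0.46 ± 0.0751), which encode T-type calcium channels, were lower.

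Eph receptors and ephrins, which guide axons by contact between cells, differed in direction: most Eph receptor genes were higher in DH, and no ephrin gene was. Of 12 Eph receptor genes tested 8 were higher in DH and 2 lower, and of 8 ephrin genes 0 were higher and 4 lower. Over the 20 genes together 8 were higher and 6 lower, and the groups did not overlap in 11, beside 12.3% of all genes tested. Epha6 was at 44, 62.8 and 80.7 CPM in DH and 21.1, 24.7 and 39.1 CPM in VH (log2 fold change 1.25 ± 0.158, adjusted p = 4.07e-09). Epha4 was at 349, 419 and 469 CPM in DH and 218, 231 and 308 CPM in VH (log2 fold change 0.8 ± 0.0909, adjusted p = 1.38e-10). In both every DH library was above every VH library. Epha5 (0.74 ± 0.0663), Ephb1 (0.77 ± 0.101), Epha3 (0.69 ± 0.101), Ephb2 (0.46 ± 0.0825) and Epha10 (0.42 ± 0.08) followed, and Ephb6 (-0.43 ± 0.0579) and Epha8 (-0.77 ± 0.203) were lower. Efnb2 was at 16.6, 18.3 and 22.6 CPM in DH and 30.2, 45.5 and 48.8 CPM in VH (log2 fold change -1.19 ± 0.127, adjusted p = 3.4e-11), with no overlap. Efna5 was at 2.62, 2.81 and 4 CPM in DH and 3.61, 8.15 and 9.43 CPM in VH (log2 fold change -1.31 ± 0.233, adjusted p = 7.11e-06), where the lowest VH value, in library 35B, lay within the range of DH. Efnb1 (-0.39 ± 0.0824) and Efna3 (-0.34 ± 0.0669) were lower too, and Efnb3 did not pass (0.05 ± 0.0602). The split into receptors and ligands was made after the values of the list were known.

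Of 31 genes of semaphorins, plexins, slits, netrins and their receptors 10 were higher and 8 lower (median 0.07). Robo3, a slit receptor family member, was at 33.9, 62.6 and 67.7 CPM in DH and 11.8, 15.2 and 30.3 CPM in VH (log2 fold change 1.71 ± 0.209, adjusted p = 1.58e-09), with no overlap. Sema5a (1.17 ± 0.136), Sema5b (0.68 ± 0.0869), Sema6d (0.54 ± 0.0777) and Robo2 (0.44 ± 0.066) were higher, and Unc5d, a netrin receptor (-1.08 ± 0.155), Plxnc1 (-0.82 ± 0.0905), Sema4g (-0.86 ± 0.0801) and Slit2 (-0.76 ± 0.119) lower. Nrp1 (0 ± 0.0842), Nrp2 (-0.02 ± 0.0914) and Dcc (0.03 ± 0.0572) did not pass. Of 33 cadherins and other adhesion genes 7 were higher and 14 lower (median -0.13). Cdh8 was at 54.8, 65.7 and 72.7 CPM in DH and 35.7, 38.2 and 50.4 CPM in VH (log2 fold change 0.67 ± 0.0821, adjusted p = 9.28e-10). Tenm4, a teneurin, was at 69.9, 80.2 and 101 CPM in DH and 139, 169 and 186 CPM in VH (log2 fold change -1.02 ± 0.117, adjusted p = 2.56e-10), and the groups did not overlap in either. Cdh13 (-0.72 ± 0.104), Tenm1 (-0.59 ± 0.0943), Tenm2 (-0.46 ± 0.0815), Pcdh19 (-0.4 ± 0.0678) and Flrt3 (-0.52 ± 0.068) were lower. Flrt2 (0.33 ± 0.0702) and Cntnap2 (0.34 ± 0.0542) were higher, while Cdh2 (-0.03 ± 0.0682) and Tenm3 (0.02 ± 0.103) did not pass.

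Extracellular matrix genes were higher in 6 of 30 and lower in 11 (median -0.03). Beside Dcn and Col6a1, the collagen gene Col23a1 was lower, at 5.77, 7.42 and 10.6 CPM in DH and 13.2, 27.9 and 36.9 CPM in VH (log2 fold change -1.82 ± 0.259, adjusted p = 7.81e-08). The collagen genes Col5a1 (-1.8 ± 0.283) and Col12a1 (-1.02 ± 0.157) were lower, as were Fbln2 (-1.23 ± 0.144) and Sparc (-0.69 ± 0.0807). Of the lecticans, proteoglycans of brain matrix, Acan, Bcan (0.31 ± 0.0535) and Vcan (0.36 ± 0.0795) were higher and Ncan did not pass (0.06 ± 0.0432). Of 30 Wnt pathway genes 6 were higher and 10 lower (median -0.11), and 4 were higher without code 35C. Among ligands, Wnt7b was at 28.6, 30.9 and 33.6 CPM in DH and 49, 56.7 and 63 CPM in VH (log2 fold change -0.86 ± 0.0644, adjusted p = 2.25e-16), the smallest p of all genes tested. Wnt7a (-0.48 ± 0.0821) and Wnt4 were lower, whereas Wnt2 and Wnt9a (0.63 ± 0.178) were higher. Of the secreted regulators Rspo2 and Rspo3 (-0.96 ± 0.119), Frzb (-0.68 ± 0.111) and Dkk2 (-1.16 ± 0.279) were lower. Of the readouts of the pathway Lef1 did not pass while Nkd2 was lower (-1.12 ± 0.162). Axin2, another readout, was at 19.3 to 26.5 CPM in DH and 16.9 to 22.4 CPM in VH, and its groups overlapped. Of 30 genes of TGF-beta, activin and BMP signalling 10 were higher and 9 lower (median 0.07). Inhba, the activin A subunit (1.02 ± 0.156), its antagonist Fst (1.31 ± 0.194), and the BMP antagonist Grem1 (1.08 ± 0.174) were higher, and Bmp3 (-1.67 ± 0.267) and the activin receptor gene Acvr2a (-0.58 ± 0.0848) lower.

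Immediate early genes, which neurons transcribe within minutes of activity, were higher in DH in 8 of 20 and lower in 3 (median 0.05); 5 were higher without codes 35A and 35B. Arc was at 84.7, 106 and 127 CPM in DH and 64.9, 66.4 and 77.3 CPM in VH (log2 fold change 0.63 ± 0.104, adjusted p = 1.91e-06). Egr1 was at 92.3, 115 and 144 CPM in DH and 64, 75.5 and 91.8 CPM in VH (log2 fold change 0.6 ± 0.104, adjusted p = 4.22e-06). The groups did not overlap in either. Egr3 was higher (0.45 ± 0.0696), while Fosl2 (-0.74 ± 0.0964), Nr4a2 (-0.65 ± 0.111) and Jun (-0.38 ± 0.0826) were lower. Fos (0.03 ± 0.225), Npas4 (0.04 ± 0.148) and Junb (0.05 ± 0.0827) did not pass. Of 12 genes of adult neurogenesis 6 were higher and 3 lower (2 lower without 35C, without 36A or without 35A and 35B; median 0.21). Eomes, the transcription factor of intermediate progenitors, was at 2.25, 2.97 and 3.78 CPM in DH and 0.0843, 0.366 and 0.554 CPM in VH (log2 fold change 3.16 ± 0.62, adjusted p = 4e-05). Igfbpl1, known from newborn neurons, had 5.15, 6.81 and 7.89 CPM in DH and 1.03, 1.23 and 1.95 CPM in VH. The groups did not overlap in either. Mki67 (0.98 ± 0.18) and Top2a (0.92 ± 0.158), genes of dividing cells, were higher, while Dcx, the doublecortin gene of immature neurons, was lower (-0.38 ± 0.0826) and Sox11 did not pass (-0.13 ± 0.075). Of 8 acute phase genes 2 were higher, Il1r1 (0.73 ± 0.155) and Serpina3n (0.36 ± 0.104), and none lower; Lcn2 did not pass (-0.26 ± 0.85).

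At the level of transcripts, estimated counts were tested in the same way, and 5554 of 60332 transcripts passed (9.21%), 3058 higher and 2496 lower. Estimated counts divide reads between similar transcripts, and their values depend on that division. All 3 protein-coding transcripts of Epha7 above 5 CPM were higher in DH, Epha7-202 (1.6 ± 0.151), Epha7-201 (1.6 ± 0.204) and Epha7-203 (1.03 ± 0.272). For Bdnf, Bdnf-205 passed (0.9 ± 0.216), while Bdnf-211 (0.13 ± 0.355) and Bdnf-209 (0.22 ± 0.227) did not. In 114 genes transcripts were called in opposite directions, in 102 of them with transcripts of at least 1 CPM, and 5 of the 6 with the smallest p are given here. Mbp-215, of 2046 nt, had 491, 549 and 677 CPM in DH libraries and 199, 239 and 405 CPM in VH libraries (log2 fold change 1.03 ± 0.179, adjusted p = 2.37e-05). Mbp-205, of 4797 nt, had 43.5, 45.3 and 49.4 CPM in DH libraries and 60.5, 64.1 and 69.7 CPM in VH libraries (log2 fold change -0.49 ± 0.0588, adjusted p = 6.2e-09). The groups did not overlap in either, and the longer transcript went against the gene. In Ncam1, a cell adhesion gene, Ncam1-201 (2567 nt) was higher (0.65 ± 0.152) and Ncam1-204 (6050 nt) lower (-0.37 ± 0.0695). Ndrg4-201 was higher (0.89 ± 0.135) and Ndrg4-203 lower (-0.33 ± 0.0729), Tmcc2-203 higher (0.75 ± 0.124) and Tmcc2-201 lower (-0.34 ± 0.0735). In Grik2, a kainate receptor gene, the protein-coding Grik2-202 was higher (0.58 ± 0.123) and Grik2-203, annotated as a retained intron, lower (-0.49 ± 0.101).

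The difference between DH and VH was set beside that of the 3 groups most like it, each made of 12 other libraries. Under the label 6NJ in the home cage, 6785 of the 6842 genes had the same sign, and 5383 were also past the test with that sign, 78.7% of the 6842 and 77.9% of the 6911 called there; 2 were called with opposite signs. Under the label 6J, 6721 had the same sign after the cue and 6667 after shock with the cue, with 4781 and 4219 called in both, among 6492 and 5315 called there, and 0 called with opposite signs. Across all 20255 genes the log2 fold changes correlated with Pearson r = 0.838 with 6NJ in the home cage, 0.797 with 6J after the cue and 0.786 with 6J after shock with the cue. Genes are not independent replicates, and the 4 differences come from 1 fit. Tested as an interaction with edgeR, the regional difference differed from that of 6NJ in the home cage in 0 genes (0%), from that of 6J after the cue in 0 (0%) and from that of 6J after shock with the cue in 0 (0%). At an unadjusted p under 0.05 there were 370, 783 and 989 genes, 1.83%, 3.87% and 4.88% of those tested. DESeq2, which tested 40529 genes for each interaction, also called 0 in each. Out of that larger number, 539, 1026 and 1213 had an unadjusted p under 0.05 with DESeq2. The median standard error of an interaction was 0.122 to 0.123 on the log2 scale, against 0.0867 for the difference itself, so smaller changes of the regional difference were not detectable with these libraries. For Lct the log2 fold change of DH over VH was 2.29 in 6J in the home cage, 1.85 in 6NJ in the home cage, 2.38 in 6J after the cue and 2.09 in 6J after shock with the cue. For Dio3 these were -4.83, -4.01, -4.33 and -4.27, for Cyp26b1 2.36, 2.06, 2.13 and 1.47, for Eomes 3.16, 1.82, 1.23 and 2, and for Mbp 0.99, 0.73, 0.71 and 0.81. Wfs1 was at 0.7 in 6J in the home cage, against 1.26 in 6NJ in the home cage (difference -0.55, adjusted p = 1 for the interaction).

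**Figure D5:**
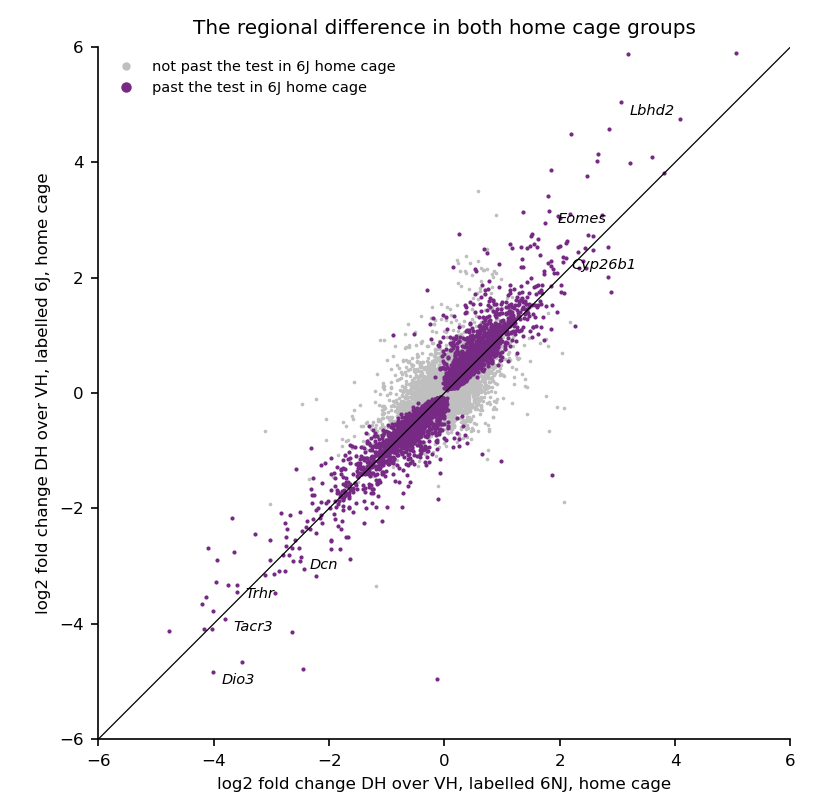
Log2 fold change of DH over VH of each gene tested, in mice labelled 6J (vertical axis) and in mice labelled 6NJ (horizontal axis), both in the home cage; purple points passed the test in 6J and the line marks equal values. Dio3, Tacr3 and Trhr lie at the lower left and Cyp26b1 and Lbhd2 at the upper right in both groups, with Pearson r = 0.838 over 20255 genes.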

How the data were processed

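RNA of 72 libraries was sequenced as stranded poly(A) libraries in single-end reads, per the labels' protocols. The authors deposited 1 table of raw counts per gene and 1 of estimated counts per transcript. The submitters' processing notes name FastQC, HISAT2, featureCounts, kallisto, DESeq2 and the build GRCm38. Not given in the sources used here were versions, roles and the strand setting of the counting. If strand was not used, reads of overlapping genes cannot be told apart; of 333 genes named, 157 overlap another annotated gene, 126 on the opposite strand. Of 55401 genes, 54821 had the extent of GENCODE vM21, whose GRCm38 coordinates are given.

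The members and lists were chosen with earlier results of these data known. Genes passing edgeR's filterByExpr (20255) were fitted with edgeR 4.0.16 in R 4.3.3: TMM scaling, 1 mean for each group over all 72 libraries, which share 1 estimate of the spread, robust quasi-likelihood F-tests and Benjamini-Hochberg adjustment at 0.05. Estimated counts were rounded to whole numbers and tested likewise. The standard error is the log2 fold change divided by the root of F. CPM values are counts scaled by TMM library size. The p-values measure the spread between these libraries, which may be technical. No 2 replicates agreed within sampling noise (chi-square over degrees of freedom at least 4.55 in 30 pairs). On simulated counts for this comparison with 20255 genes, 96 of 100 genes changed by 0.5 (log2) and 100 of 100 changed by 1 were recovered, with 13 false calls. The simulation gave all genes 1 common spread, changed no other genes and drew the changed ones from those above 1 CPM. Its figures therefore check the fit and are not the recovery or error rate in the data.

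The text names the 20 genes of each direction with the smallest p among those at least 2-fold different. It also names the 10 of each direction with the largest fold and at least 5 CPM on average in the higher region, and members of the lists, with exceptions stated. For genes with transcripts called in opposite directions the 6 with the smallest p were chosen, and some items that these rules cover are not reported here. Alternatives were RLE scaling, other filters, DESeq2 1.42.0, a fit to only the groups compared, a replicate block, and libraries left out.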

Additional observations from a re-analysis of the deposited data

Results flagged for a closer look

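A library stood apart from the other 5 of its region, by Dixon's test, in 64 of 668 sets of 6 values (334 genes in DH and in VH), where chance gives about 1 in 20. The pairs below give the CPM of that library and of the nearest other library of its region. The VH library 35B had 27 of the 64.

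The DH library 35A was highest in Bok 88.6 against 69.5, Chgb 715 against 572, Crym 158 against 121, Efna3 68.1 against 55.6 and Ephb6 77 against 65 CPM. It was also highest in Nkd2 14.1 against 8.6, Nos1 83.9 against 73.7, Rxfp3 4.7 against 2.94, Wnt7a 13.7 against 10.8 and mt-Atp8 3.26 against 1.17 CPM. The DH library 35A was lowest in Cyp26b1 18 against 24.5 and Robo3 33.9 against 55.5 CPM. The DH library 35B was highest in Col6a3 42.7 against 21.3, Epha10 65.8 against 53.8, Grem1 15.8 against 11.3, Homer2 194 against 158 and Htr1a 39.7 against 29.7 CPM. It was also highest in Scn3b 444 against 361 CPM. The DH library 35C was highest in Htr5a 10.7 against 10.1 CPM. The DH library 36B was highest in Chrna3 7.07 against 0.647, Chrnb4 4.76 against 0.372, Gpr151 10.8 against 0.872, Tcf7l2 8.69 against 5.88 and Ttr 3340 against 1160 CPM. The DH library 36B was lowest in Npy2r 45.8 against 52.9 CPM. The DH library 36C was highest in Sgk1 76.7 against 60.3 CPM.

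The VH library 35A was highest in Cacna1i 90 against 77.1, Rxra 48.3 against 41.1 and Sparc 544 against 446 CPM. The VH library 35A was lowest in Col12a1 9.61 against 14.6 and Mki67 0.836 against 1.08 CPM. The VH library 35B was highest in Col15a1 10.4 against 7.82, Cyp26b1 9.09 against 4.75, Dsp 36.7 against 16.3, Epha4 308 against 236 and Epha6 39.1 against 26.1 CPM. It was also highest in Grin2a 346 against 289, Il1r1 19.4 against 11.2, Itga7 29.5 against 18.4, Kcnq3 210 against 180 and Lcn2 16.8 against 5.85 CPM. It was also highest in Lct 27.8 against 12, Pdyn 11.3 against 7.47, Pla2g2f 2.85 against 0.955, Plcl1 34.9 against 20.8 and Plk5 14.2 against 9.2 CPM. It was also highest in Prox1 115 against 64.9, Scn3b 282 against 212, Sema5a 108 against 68.2 and Srl 10.8 against 9.17 CPM. The VH library 35B was lowest in Col6a1 34.4 against 79.7, Col6a2 9.83 against 20.7, Crhbp 10.8 against 15.7, Fxyd6 68.2 against 113 and Gabrq 0.264 against 0.955 CPM. It was also lowest in Htr3a 8.46 against 10.6, Lefty2 1.32 against 2.3 and Olfr316 0.949 against 1.57 CPM. The VH library 36A was highest in Cck 258 against 220 CPM. The VH library 36A was lowest in Sox11 17 against 20.9 CPM. The VH library 36B was highest in Crabp2 2.39 against 1.05, Dkk2 1.3 against 0.802, Tenm3 67.4 against 57.7 and Ttr 606 against 226 CPM. Whether the VH library 35B was cut nearer to DH was not tested; its dentate granule cell markers summed to 662 CPM, against 374 to 485 CPM in the other 5 VH libraries.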

How the results depend on the processing

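The direction and count of the main comparison changed little with the processing. The 6842 genes became 6844 with RLE scaling, 6011 without a filter on low counts, 6315 with a mean of at least 1 CPM, 5829 in a fit to the 12 libraries alone and 6890 with DESeq2. Without each code in turn they were 5500 to 6533, and without codes 35A and 35B, those with Lcn2, 6039. The 753 genes past 2-fold were 353 with a mean of at least 1 CPM, since that filter drops low genes, 900 with DESeq2, 683 to 838 without each code in turn and 921 without codes 35A and 35B. The 5554 transcripts were 3324 in a fit to the 12 libraries alone, 5523 with RLE scaling, 4648 without a filter and 6024 with a mean of at least 1 CPM; the cause of the drop to 3324 was not tested. The interactions gave 0 genes in each setting run.

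The same codes occur in DH and VH, but the labels do not say that a code is 1 mouse. Deviations of libraries with the same code correlated at -0.031 to 0.341, against a median of -0.031 for different codes (-0.223 to 0.159), and 5 of 6 DH libraries correlated best with the VH library of their own code. With the code as a replicate block, 7669 of 20255 genes, 758 past 2-fold and 6143 transcripts passed. In that fit 10 of 12 microglia markers were higher in DH, and Fkbp5 and Tsc22d3 passed (adjusted p = 0.0147 and 0.0489).

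Of 284 genes named as past the test, 260 kept their direction and their side of the threshold in each of the 13 settings that tested them. The other 24 were lost in at least 1. A gene that a filter dropped, such as one under a mean of 1 CPM, was not counted as lost in that setting. Chrnb4 and Gpr151 turned to -0.09 and -0.26 without code 36B; over all codes left out in turn Chrnb4 ranged from -0.09 to 2.52 and Gpr151 from -0.26 to 1.95. In the edgeR fit to the 12 libraries alone, C1ql2, Glis3, Calb1, Adarb2, Fibcd1, Gsg1l, Rora, Rarg, Chrna3 and Gpr151 did not pass (adjusted p 0.0523 to 0.197). Their calls rest on the spread shared with the other libraries of the series. Lypd1 passed in that fit (adjusted p = 0.0225). Depth, at 32012867 to 39707582 counts a library, limits mainly genes under 1 CPM, such as Cyp26a1, Gabrq and Chrnb4.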
